A study of Mus musculus with 31 samples.

Results

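The 237 genes described here are mouse zinc finger protein genes whose symbol is Zfp followed by a number alone and whose mean over 17 total mRNA libraries was at least 50 normalized counts. The tables list 41255 gene symbols, of which 338 have such a name, leaving out Zfp36, which encodes an RNA-decay protein of another zinc finger class. The 101 genes under the limit include 29 that are at 0 in all total mRNA libraries and 25 with a mean between 10 and 50. The genes were thus chosen by their measured level in total mRNA, so that this level is a description and not a finding. The members nearest above the limit were Zfp455 at 52.2, Zfp93 at 53.2 and Zfp772 at 53.3, and the genes nearest below it were Zfp473 at 49.4, Zfp442 at 49.2 and Zfp619 at 48.1. In 232 members the mean was at least 50 in both genotypes. Zfp551 reached it in R98S alone, and Zfp184, Zfp775, Zfp846 and Zfp93 in WT alone, so that these 5 genes entered partly through the genotype in which they were higher.

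The RNA came from Ba/F3, a lymphoid mouse line that depends on interleukin-3 for growth. An shRNA lowered its own Rpl10, which codes for a large-subunit ribosomal protein, and a retrovirus supplied human RPL10 as WT or as R98S, an arginine-to-serine form seen in T-cell acute lymphoblastic leukemia. All clones of both genotypes carry the knockdown and a transgene. Each genotype is represented by 3 clones grown from single cells, R98S clones 11, 13 and 35 and WT clones 28, 29 and 36, so that repeated cultures of a clone share their origin and p-values measure the spread between cultures. Total mRNA was read in 9 cultures of R98S and 8 of WT, polysomal RNA in 8 and 6, and 14 cultures gave both. Polysomal RNA was pooled from the gradient fractions that hold transcripts with at least 2 ribosomes. The libraries held 8831180 to 22059792 reads. Mouse Rpl10 lay between 901 and 2984 normalized counts in R98S and between 620 and 5715 in WT total mRNA, ranges that overlap. Of 12 early B-cell and interleukin-3 markers, Csf2rb, a receptor subunit for interleukin-3, was at least 28599 in every total mRNA library, and Ptprc, Cd79a and Tcf3 were also found in all of them, whereas Ebf1, Pax5, Vpreb1 and Igll1 had a mean under 10. The 12 markers summed to 111662 to 223813 in R98S and 58544 to 104228 in WT without overlap. Most of the sum was Csf2rb and Csf2rb2, each higher in R98S by 1.20 on the log2 scale (adjusted p = 1.78e-05 and 1.65e-05), Cd79b was also higher (0.87, adjusted p = 0.00667), and Ptprc (-0.48, adjusted p = 0.0646) and Ikzf1 (-2.56, adjusted p = 0.0202) were lower. The part of these differences in the results below was not tested. The 5 T-cell markers summed to 80.7 to 154 in R98S and 38.4 to 244 in WT, and 3 of them were tested. Cd3d was higher in R98S (1.85, adjusted p = 0.000221), Cd3g was lower (-3.06, adjusted p = 0.00887) and Lck was not called (0.80, adjusted p = 0.1001). With the replicate number as a block 2 were higher and 1 lower, and in polysomal RNA the 2 tested were both higher (median 1.95). The 6 fibroblast and epithelial markers summed to at most 13.0. In bulk RNA fewer cells of a type and less RNA per cell cannot be told apart. A further total mRNA library, of WT clone 36 with number 1, was left out by the study because it grouped with R98S, so the comparison of genotypes is conditional on that choice.

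Most proteins of this class bind DNA through tandem C2H2 zinc fingers, in which a pair of cysteines and a pair of histidines hold a zinc ion and the helix between them reads a few bases of DNA. Many of the genes also encode a KRAB domain, which recruits the corepressor Trim28 and with it the histone methyltransferase Setdb1 and heterochromatin proteins. KRAB zinc finger proteins are known as silencers of retroelements and guardians of imprints, and their genes lie in clusters that arose by repeated duplication. Other members have no KRAB domain and act as general transcription factors, as partners of chromatin complexes or on RNA.

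A finger with a conserved linker to the next finger was found in 181 of the 234 members with a coding transcript. The coding sequences of 1 finger each, with its linker, are shown for the genes on which the results below turn. The capitals mark the codons of the 2 cysteines and 2 histidines, each run has 78 bases, and the positions are those of GRCm38 (mm10) in the GENCODE M21 annotation.
Zfp771, chr7:127253856-127253933, plus strand: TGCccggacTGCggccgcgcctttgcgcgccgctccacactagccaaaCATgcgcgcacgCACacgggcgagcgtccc
Zfp764, chr7:127405421-127405498, minus strand: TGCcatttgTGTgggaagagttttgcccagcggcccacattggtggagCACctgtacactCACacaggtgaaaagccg
Zfp747, chr7:127374460-127374537, minus strand: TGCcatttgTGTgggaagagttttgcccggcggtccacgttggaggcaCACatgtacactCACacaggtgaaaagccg
Zfp560, chr9:20348647-20348724, minus strand: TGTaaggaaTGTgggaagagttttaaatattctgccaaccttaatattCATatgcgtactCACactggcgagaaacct
Zfp846, chr9:20593335-20593412, plus strand: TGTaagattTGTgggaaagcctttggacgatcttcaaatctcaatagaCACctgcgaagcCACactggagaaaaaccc
Zfp445, chr9:122852892-122852969, minus strand: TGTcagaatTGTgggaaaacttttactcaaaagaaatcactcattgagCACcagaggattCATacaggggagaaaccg
Zfp422, chr6:116626707-116626784, minus strand: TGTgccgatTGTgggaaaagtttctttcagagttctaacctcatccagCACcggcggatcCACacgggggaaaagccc
Zfp764 and Zfp747, which are neighbours on chromosome 7, share 71 of 78 bases in this finger. In the other pairs of these 7 sequences between 36 and 52 bases were identical.

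The 237 members lie on 20 chromosomes as far as they could be placed, which was possible for 235 of them, with 65 on chromosome 7, 29 on chromosome 17 and 22 on chromosome 13. The median member had 10 fingers, and a KRAB pattern was found in 105 of 234 proteins and a SCAN pattern, another N-terminal domain of zinc finger proteins, in 4. The searches asked for set residues, so a member without a pattern may still encode the domain. This holds for all comparisons by KRAB pattern below. Per kilobase of exon, which allows genes to be compared, the median level in total mRNA was 69.3 normalized counts. Zfp207 was the most abundant member at 846 per kilobase and Zfp846 the lowest at 4.04. Members with a KRAB pattern had a median of 54.4 per kilobase and members without one a median of 84.9. In 17 members over 20% of the exonic windows of 50 bases also occur in another gene, and in 10 members over 20% of the exonic bases overlap another gene, so that reads of these genes may be shared or lost. The study kept only primary alignments with a mapping quality of at least 10, which can drop reads that match several places.

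The baseline question was how far transcripts of these genes were found on polysomes, compared with transcripts of similar level. The polysomal to total ratio is the log2 difference between the 2 values of a culture, and because the tables were normalized separately its 0 is arbitrary and a gene can only be compared with other genes. In WT cells the ratio of numbered Zfp genes was lower than that of other genes in each of 6 level bins. The difference between the medians on the log2 scale was -0.06 at 50 to 100 normalized counts (37 members), -0.16 at 100 to 200 (39 members), -0.51 at 200 to 400 (65 members), -0.45 at 400 to 800 (57 members), -0.50 at 800 to 1600 (29 members) and -0.83 above 1600 (10 members). R98S cells gave -0.13, -0.22, -0.41, -0.41, -0.50 and -0.70 in the same bins. The level that defines the bins is also the denominator of the ratio, and this holds for members and other genes alike.

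**Figure D1:**
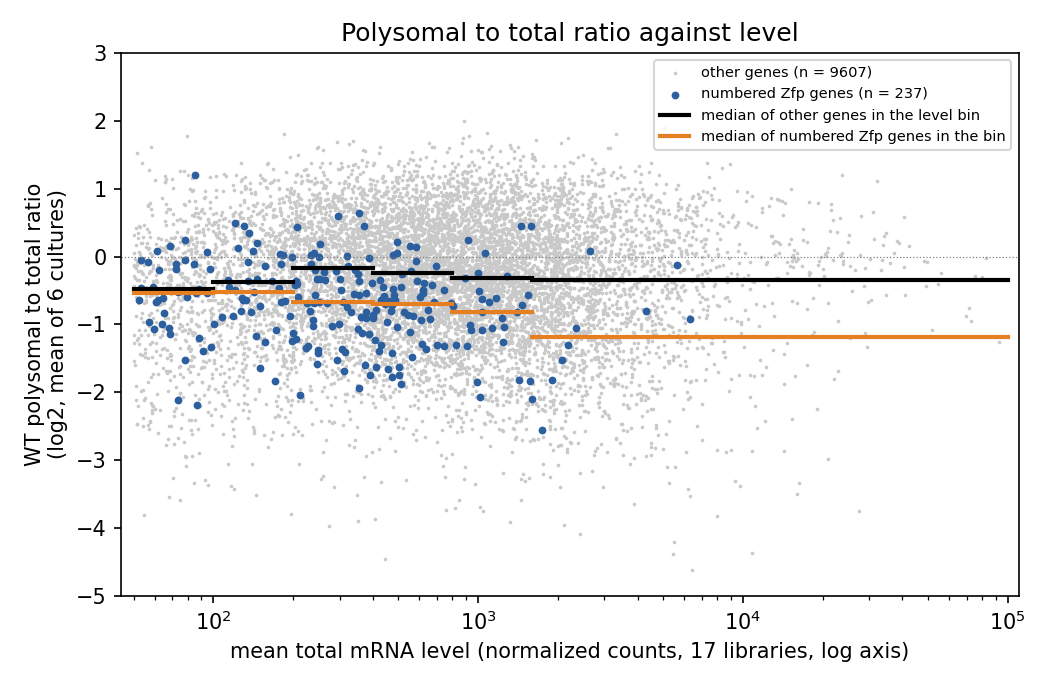
Each point is a gene with a mean of at least 50, placed by its mean total mRNA level on a log axis and its mean log2 polysomal to total ratio over 6 WT cultures; blue points are the 237 numbered Zfp genes, grey points the 9607 other genes, and bars give the medians of each level bin (orange for numbered Zfp genes, black for other genes). The orange bar lies below the black bar in all 6 bins, by 0.06 in the lowest and 0.83 in the highest.

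When each member was set against the median of other genes in its level bin, the median member stood at -0.39 in WT and -0.36 in R98S. With bins of level and coding length, an alternative added after the data were seen, it stood at -0.13 and -0.088. With bins of level alone, in WT 177 of 237 members lay below 0, in R98S 188 did, and 173 did in both genotypes. The 0 of a limma test of each ratio is set by the separate scaling of the tables, so its calls are given only as counts beside those of all genes, which were not matched in level. In that test 146 members were called lower in WT and 5 higher (adjusted p under 0.1), against 41.9% lower and 14.1% higher of all 10627 genes tested and 42.3% and 15.2% of other genes at or above 50. In R98S 171 were called lower and 7 higher, against 47.7% and 17% of all genes. In both genotypes 138 members were called lower and 4 higher, against 37.8% and 11.4% of all genes. The number in WT varied with the cultures used. Without those of replicate number 3, which leaves 3, 10 members were called lower, against 9.01% of all genes, and the median was -0.25, and without WT clone 28, which leaves 4, 86 were called lower, against 27.7% of all genes. Other families of zinc finger genes, at the same limit, also lay low. The WT median relative to genes of the same level was -0.53 for 15 Zfp genes with a letter after the number, -0.55 for 34 Zbtb genes and -0.59 for 16 Zscan and Zkscan genes.

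The size of the difference varied between cultures more than between genotypes. The median member stood at -0.37 ± 0.24 (SD, n = 6 cultures) in WT and -0.33 ± 0.15 (SD, n = 8 cultures) in R98S, with ranges of -0.62 to -0.0021 and -0.58 to -0.15 that overlap. It lay between -0.58 and -0.41 in the 6 cultures with replicate number 3, between -0.62 and -0.13 in the 4 with number 2 and between -0.32 and -0.0021 in the 4 with number 1. The culture nearest 0 was WT clone 29 with number 1, in which 119 of 237 members were below 0, and the lowest was WT clone 28 with number 2. Replicate number moves with this value, and its part in it was not tested.

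**Figure D2:**
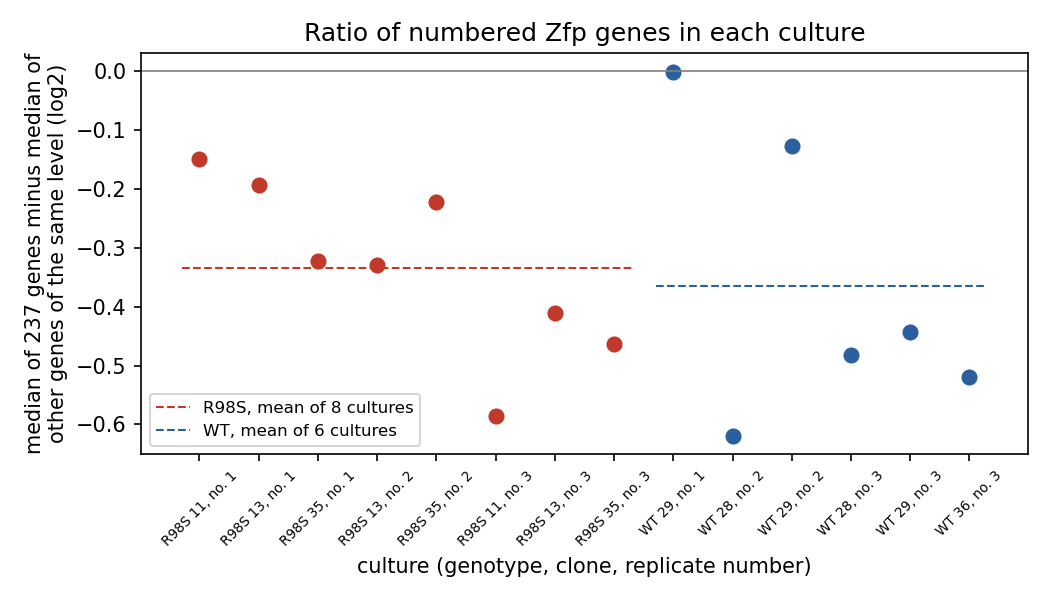
Each point is a culture, labelled by genotype, clone and replicate number, and gives the median log2 polysomal to total ratio of the 237 genes minus that of other genes of the same level; dashed lines are the means of 8 R98S and 6 WT cultures. All 14 points are below 0, from -0.62 in WT clone 28 with number 2 to -0.0021 in WT clone 29 with number 1.

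Longer transcripts had lower ratios among numbered Zfp genes as among other genes. Over members the Spearman coefficient of the level-adjusted ratio with the length of the longest transcript was -0.50 in WT and -0.47 in R98S (235 genes), and over 9168 other genes -0.57 and -0.58. With the coding length it was -0.48 and -0.52 over members (234 genes) and -0.61 and -0.68 over 9003 other genes. These are given as descriptions over genes that share libraries. Members were a little longer than other genes (median 3591 against 3394 bases), with longer coding parts (1746 against 1386 bases) and lower GC content (44.7% against 49.7%). Coding length was not matched in the classes of transcript length that follow. The WT median of members was 0.36 under 2 kb, -0.11 at 2 to 3 kb, -0.40 at 3 to 4 kb, -0.51 at 4 to 6 kb and -0.98 at 6 kb or more, where other genes had 0.66, 0.31, -0.04, -0.39 and -0.89. With bins of both level and length the median member stood at -0.22 in WT, with 154 of 235 below 0, and at -0.19 in R98S, with 159 below 0. With bins of level and coding length it stood at -0.13 in WT, with 143 of 234 below 0, and at -0.088 in R98S, with 141 below 0. All 4 values are nearer to 0 than with bins of level alone.

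**Figure D3:**
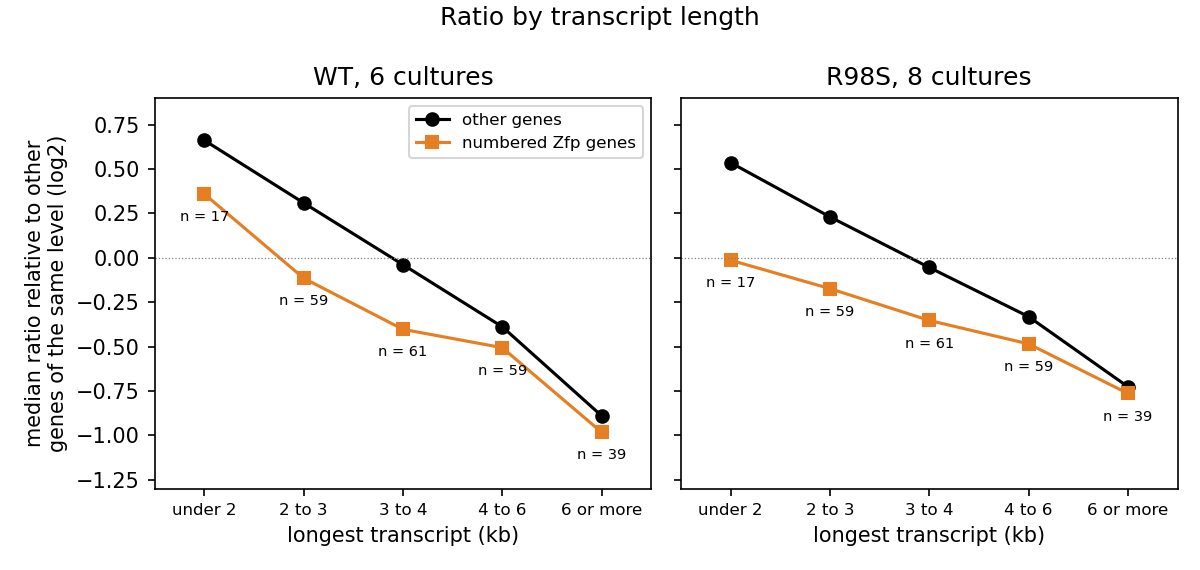
Points give the median log2 polysomal to total ratio, relative to genes of the same level, in 5 classes of transcript length for numbered Zfp genes (orange squares, number of genes below each) and other genes (black circles), in WT (left) and R98S (right). In WT the orange line lies below the black line in each class, by 0.42 at 2 to 3 kb and 0.09 at 6 kb or more.

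By number of fingers the WT median was -0.35 for 0 to 2 (21 members), -0.41 for 3 to 5 (28 members), -0.34 for 6 to 8 (36 members), -0.26 for 9 to 11 (58 members), -0.44 for 12 to 14 (43 members) and -0.64 for 15 or more (48 members). The values do not fall steadily, and over members the Spearman coefficient with the number of fingers was -0.22 in WT and -0.23 in R98S. The transcripts of the class with 15 or more were longer than those with 9 to 11, with a median of 4122 against 3598 bases. Members with a KRAB pattern stood at -0.32 in WT and -0.27 in R98S, and members without one at -0.43 and -0.44.

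The member with the lowest ratio in WT was Zfp445, a KRAB protein known for the maintenance of imprints, whose finger is shown above. In total mRNA it had 1442, 1772 and 2566 normalized counts in WT (lowest, median and highest of 8 libraries) and 118, 248 and 831 in polysomal RNA (6 libraries). R98S gave 1422, 1573 and 1824 in total mRNA and 195, 628 and 765 in polysomal RNA. The values of the 2 fractions are on separate scales. Relative to genes of its level Zfp445 stood at -2.21 in WT and -1.44 in R98S. The next lowest in WT were Zfp526 at -1.88, Zfp276 at -1.77, Zfp871 at -1.75 and Zfp217, a partner of corepressor complexes, at -1.75. These were picked by their WT values. In R98S they stood at -1.21, -1.99, -0.58 and -1.34, and the lowest member there was Zfp276.

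The highest ratio was that of Zfp428, with a single finger and a transcript of 1182 bases, at 1.67 in WT and 0.98 in R98S relative to genes of its level. Its WT values were 44.2, 60.4 and 165 in total mRNA and 101, 199 and 258 in polysomal RNA. Zfp825 followed at 0.86, Zfp637 at 0.81, Zfp277 at 0.81 and Zfp422, whose finger is shown above, at 0.77. In R98S these stood at 0.34, 0.62, 0.84 and 0.79, and 29.5% of the windows of Zfp825 also occur in Gm46430. The 5 highest members had transcripts of 1182 to 4504 bases and the 5 lowest had 3380 to 10851.

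The next question was whether these transcripts differed between R98S and WT clones. In total mRNA 24 members were higher and 22 lower in R98S (limma, adjusted p under 0.1), which is 10.1% and 9.28% of 237, against 14.5% higher and 15.8% lower of all 11133 genes tested. Among other genes with a mean of at least 50 the shares were 14.3% and 16.6%. With the replicate number as a block 36 members were higher and 33 lower, against 18.5% and 19.9% of all genes, and all 46 earlier calls were among them. The changes were mostly small. The median absolute log2 fold change was 0.17 in members and 0.22 in other genes at or above 50, and it exceeded 1 in 2 of 237 members (0.84%) and in 4.27% of other genes at or above 50. Among the members named below, Zfp207, Zfp446, Zfp560, Zfp747, Zfp764, Zfp771 and Zfp846 kept their total mRNA calls when any clone or any replicate number was left out and over clone means, and the others lost theirs in at least 1 of these fits. Without the libraries of replicate number 3, 8 members were higher and 6 lower, against 5.99% and 6.03% of all genes, and without R98S clone 11 the numbers were 13 and 9, against 7.68% and 9.34%. Without WT clone 28 the lower members numbered 9, against 10.4%. Of the 232 members that reached the limit in each genotype 23 were higher and 19 lower.

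Zfp207, which encodes a spindle and splicing protein also known as BuGZ and is the most abundant member, was higher in R98S. Its total mRNA levels were 4959, 6804 and 9230 normalized counts in R98S (lowest, median and highest of 9 libraries) and 3107, 4078 and 4739 in WT. All 9 R98S libraries lay above all 8 WT libraries, the difference was 0.79 on the log2 scale (SE 0.11, adjusted p = 6.54e-05), and the replicate block gave 0.79. In polysomal RNA it had 6186, 8095 and 13806 in R98S and 2452, 3937 and 4801 in WT, again without overlap (1.19, SE 0.20, adjusted p = 0.0012). Groups that did not overlap in total mRNA were found for 4 members higher in R98S (Zfp207, Zfp446, Zfp553 and Zfp747) and for Zfp846 lower, together 2.11% of members and 3.53% of all genes tested. Zfp446, a SCAN-type gene at the proximal end of chromosome 7, had 452, 530.5 and 583 in R98S and 229, 349 and 435 in WT (0.60, SE 0.12, adjusted p = 0.00107).

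The largest positive change was that of Zfp771 on chromosome 7. Its total mRNA levels were 182, 277 and 360 in R98S and 86.5, 116 and 202 in WT, with 7 of 9 R98S libraries above all WT libraries, a difference of 1.15 (SE 0.18, adjusted p = 0.000142). Its polysomal difference was 0.83 and not called (adjusted p = 0.114), but with the replicate block it was 0.99 and called (adjusted p = 0.00355). Zfp764, a KRAB gene, had 164, 237 and 302 in R98S and 94.3, 122 and 211 in WT (0.83, SE 0.15, adjusted p = 0.000749). Zfp747, its neighbour, had 127, 167 and 220.5 in R98S and 75.7, 102 and 113 in WT, with all 9 R98S libraries above all WT libraries (0.77, SE 0.13, adjusted p = 0.000503). Reads of Zfp747 and Zfp764 could be shared, or dropped by the quality limit of the mapping, because 34.4% and 27.1% of their windows also occur in 9130019O22Rik, an unnumbered zinc finger gene between them that was itself higher (0.71, adjusted p = 0.000428). Zfp551 followed at 0.60 (SE 0.19, adjusted p = 0.0271), from 53.7, 66.1 and 93.0 in R98S and 29.8, 46.8 and 63.0 in WT, groups that overlap.

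The largest negative changes among called members were those of Zfp948 and Zfp560, both KRAB genes. Zfp948 had 28.6, 55.7 and 107 normalized counts in R98S and 65.5, 117 and 163 in WT, a difference of -0.93 (SE 0.27, adjusted p = 0.0192). Its groups overlap, and 5 of 9 R98S libraries lay below all WT libraries. Zfp560 had 252, 355 and 486 in R98S and 444, 644 and 850 in WT, with 8 of 9 R98S libraries below all WT libraries (-0.80, SE 0.15, adjusted p = 0.000721). Zfp775 was lower by a difference of -0.65 (SE 0.20, adjusted p = 0.026) and Zfp184 by one of -0.61 (SE 0.24, adjusted p = 0.0717), a call that held in 13 of 24 alternatives. Zfp846 had 24.9, 44.2 and 58.4 in R98S and 61.8, 64.0 and 82.3 in WT without overlap (-0.58, SE 0.16, adjusted p = 0.014). Zfp775, Zfp184 and Zfp846 reached the limit of 50 through WT alone, as Zfp551 did through R98S, so that their differences partly follow from the choice of members. Zfp109, named here after its values were seen, had the most negative estimate of all members, -1.16, but with an SE of 0.86 it was not called (adjusted p = 0.36). By domain, 5 of 105 members with a KRAB pattern were higher in R98S and 12 lower, and of 129 without one 19 were higher and 10 lower, against 14.5% and 15.8% of all genes. In the chromosome 7 block described next lie 4 and 6 of the higher ones, and outside it 1 with the pattern and 13 without were higher. In polysomal RNA 4 with the pattern were higher and 0 lower, and 4 and 5 without it, against 7.66% and 5.87% of all genes. The difference between these classes was not tested.

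Many of the changed members lay side by side. Members whose starts are at most 1 Mb apart were joined into blocks, a grouping chosen after the values were seen and therefore described without a test. This gave 12 blocks of at least 5 members that hold 106 of them. In the block at chr7:127233061-127885996 all 10 members were higher in total mRNA in R98S, with a median difference of 0.46 and a range of 0.29 to 1.15. Besides Zfp771, Zfp764 and Zfp747 it holds Zfp668 (0.48), Zfp629 (0.47), Zfp689 (0.45), Zfp553 (0.44), Zfp688 (0.37), Zfp646 (0.30) and Zfp768 (0.29). They differ in structure, from 2 fingers in Zfp688 to 27 in Zfp646, and 4 of the 10 (Zfp764, Zfp747, Zfp688 and Zfp689) carry a KRAB pattern. These 10 are 10 of the 24 members that were higher. Of the 65 members on chromosome 7, 14 were higher and 3 lower, where 28.8% of 771 other genes of the chromosome were higher and 8.04% lower.

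The same direction was seen in neighbours that are not numbered Zfp genes. Of 19 other genes inside the block 13 were higher in R98S and 1, Ctf2, lower, with a median of 0.37. Among them were Orai3, a calcium channel subunit (0.79, adjusted p = 0.000297), Prr14 (0.70, adjusted p = 0.000496), Fbrs (0.47, adjusted p = 0.00156) and Srcap, a chromatin remodeller (0.37, adjusted p = 0.0416). Within 1 Mb on either side 24 of 53 genes were higher and 5 lower. Over the whole chromosome 28.8% of 771 genes other than members were higher and 8.04% lower, with a median of 0.14, against 14.5% and 15.8% of all genes. Chromosome 7 is not alone in this, since 28.0% were higher and 8.99% lower on chromosome 4, 25.5% and 5.81% on chromosome 1 and 24.1% and 5.68% on chromosome 14. After centring each gene, the median of the 10 members was 0.02 to 0.40 in the 9 R98S total mRNA libraries (median 0.28) and -0.36 to -0.16 in the 8 WT libraries (median -0.24), without overlap. The mean over the libraries of a clone was 0.36, 0.12 and 0.25 for R98S clones 11, 13 and 35 and -0.20, -0.24 and -0.30 for WT clones 28, 29 and 36, so that all 3 clones of each genotype lay on the same side. In polysomal RNA the groups overlapped, at -0.56 to 0.51 in R98S and -0.51 to 0.39 in WT. There the 10 estimates were all above 0 with a median of 0.55. Of them 1 was called higher (Zfp747), against 7.66% of all genes, and 5 with the replicate block, against 15.2%. The ratio was called for none, where 0.0376% of all genes were called higher and 0% lower, and had a median of -0.0049.

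**Figure D4:**
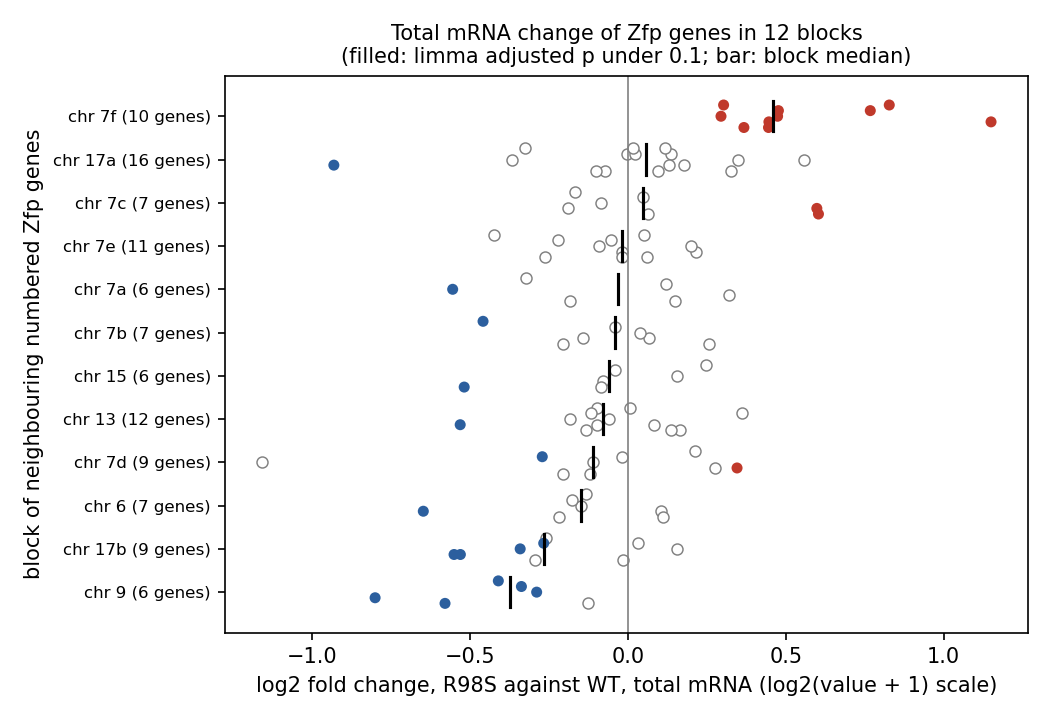
Each row is 1 of 12 blocks of neighbouring numbered Zfp genes, and each circle is a gene placed by its log2 fold change of R98S against WT in total mRNA on the log2(value + 1) scale; filled circles are called at an adjusted p under 0.1 (red higher, blue lower) and the black bar is the block median, with letters that order the blocks along a chromosome. The 10 genes of the chromosome 7 block at the top are all filled and red (0.29 to 1.15), and 5 of 6 in the chromosome 9 block at the bottom are filled and blue.

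The opposite was found in the block at chr9:19622102-20605409, where 5 of 6 members were lower in R98S and the median was -0.37, against 15.8% lower of all genes and, on chromosome 9, 18.7% lower and 9.75% higher of 595 genes other than members. These were Zfp560 (-0.80), Zfp846 (-0.58), Zfp266 (-0.41), Zfp426 (-0.34) and Zfp26 (-0.29), while Zfp317 had -0.13 and was not called (adjusted p = 0.619). Leaving out Zfp846, which reached the limit of 50 through WT alone, 4 of 5 were lower. Zfp266 had 767, 892 and 1076 normalized counts in R98S and 1003, 1226 and 1255 in WT (SE 0.08, adjusted p = 0.00115), and Zfp26 had 780, 871 and 1027 and 942, 1095 and 1262. The centred median of the 6 members was -0.40 to 0.02 in R98S libraries and 0.09 to 0.44 in WT libraries, without overlap, and the clone means were -0.23, -0.24 and -0.14 for R98S clones 11, 13 and 35 and 0.28, 0.11 and 0.33 for WT clones 28, 29 and 36. The 1 other gene inside the block, Olfr857, was higher (3.77, adjusted p = 8.56e-05). In polysomal RNA the groups overlapped, at -0.55 to 0.08 in R98S and -0.54 to 0.42 in WT. Within 1 Mb on either side of the block 6 of 28 other genes were lower and 0 higher, with a median of -0.01, and within 3 Mb 9 of 49 were lower and 3 higher. In polysomal RNA 1 member, Zfp846, was called lower, against 5.87% lower and 7.66% higher of all genes. Leaving it out, no member of this block was called there. A block of 9 members at chr17:32765496-33631779 had 4 lower and a median of -0.27 (Zfp799, Zfp81, Zfp101 and Zfp414), where 19.8% of 531 other genes of chromosome 17 were lower. In each of the other 9 blocks at most 2 members were called. With the replicate block, 3 were higher and 1 lower at chr17:21008903-23564238 (0 and 1 without it), 2 and 2 at chr7:24081924-25227507 (1 and 1 without it) and 0 and 2 at chr6:47835661-48623227 (0 and 1 without it), and 1 call was gained at chr7:4915217-5053723 (higher) and 1 at chr7:29768552-30169750 (lower). None of the 9 had more than 4 called, and the shares of all genes in that fit were 18.5% higher and 19.9% lower. In polysomal RNA that fit called 3 lower at chr15:75616679-76925448, 2 lower at chr6:47835661-48623227, 2 lower at chr7:6131491-7209998 and 1 higher at chr17:21008903-23564238, each with 0 called without it, and 3 higher and 1 lower at chr7:12415153-12985714, with 2 and 0 without it, where all genes gave 15.2% higher and 15.7% lower. Zfp551 and Zfp446, both higher, are members of the block at chr7:12415153-12985714.

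Promoters are shown for genes of the blocks on chromosome 7 and chromosome 9, as RefSeq GRCm38.p6 sequence from 250 bases before to 50 after a start. They are on the strand of the gene, and capitals mark matches to the motifs searched.
Zfp771, chr7:127244276-127244575, plus strand: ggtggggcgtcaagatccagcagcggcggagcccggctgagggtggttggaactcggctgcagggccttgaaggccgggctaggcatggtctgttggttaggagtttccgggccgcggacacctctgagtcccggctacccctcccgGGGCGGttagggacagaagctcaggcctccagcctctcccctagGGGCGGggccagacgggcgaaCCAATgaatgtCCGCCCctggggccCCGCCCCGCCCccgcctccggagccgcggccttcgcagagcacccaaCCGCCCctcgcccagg
Zfp747, chr7:127376001-127376300, minus strand: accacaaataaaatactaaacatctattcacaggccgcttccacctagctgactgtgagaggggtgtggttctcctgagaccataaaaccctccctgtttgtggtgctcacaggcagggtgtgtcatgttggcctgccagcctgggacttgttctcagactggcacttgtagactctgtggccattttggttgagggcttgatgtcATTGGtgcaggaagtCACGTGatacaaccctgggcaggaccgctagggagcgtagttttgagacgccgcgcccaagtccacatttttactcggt
Zfp560, chr9:20385109-20385408, minus strand: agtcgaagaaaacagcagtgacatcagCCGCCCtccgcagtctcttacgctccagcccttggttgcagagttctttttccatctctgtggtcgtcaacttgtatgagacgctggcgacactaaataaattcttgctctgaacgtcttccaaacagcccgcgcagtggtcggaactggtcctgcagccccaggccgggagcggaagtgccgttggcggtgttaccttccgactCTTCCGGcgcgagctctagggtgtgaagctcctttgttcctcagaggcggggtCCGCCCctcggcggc
The motifs were the GC box GGGCGG, the CCAAT box CCAAT, the ETS motif CCGGAAG, the NRF1 core GCGCATG, the E-box CACGTG, the Zfp143 core ACTACA and the CRE core TGACGT, each on both strands. The Zfp771 promoter has 6 GC boxes, 25 CpG dinucleotides and 71.7% GC, the Zfp747 promoter has no GC box, 8 CpG and 52.3% GC, and the Zfp560 promoter has 2 GC boxes, 1 ETS motif and 23 CpG. The Zfp771 and Zfp747 promoters have 1 CCAAT box each, and that of Zfp747 also has 1 E-box. The promoter of Zfp764, not shown, holds none of the motifs searched and has 6 CpG. No motif contains another, and a match is a description of the sequence only. For 200 members 248 promoters were found among 32851. The shares that follow are of these, of the 9340 promoters of other genes at or above 50, and of all promoters, which include those of genes not expressed here. The ETS motif was in 21.8%, 19.7% and 8.86%, the Zfp143 core in 23.0%, 10.9% and 10.3% and the GC box in 47.6%, 64.6% and 35.7%. The CCAAT box was in 46.4%, 37.8% and 37.4%, the CRE core in 13.7%, 12.5% and 7.51%, the NRF1 core in 6.05%, 7.71% and 3.91% and the E-box in 6.05%, 10.4% and 7.15%. The median promoter had 16 CpG dinucleotides in members, 21 in the other genes at or above 50 and 7 in all.

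In polysomal RNA fewer members were called, though their median absolute log2 fold change was 0.20, against 0.17 in total mRNA. The median SE was 0.25 against 0.14, and the difference between the fractions was not tested. There were 8 higher and 5 lower in R98S (3.38% and 2.11%), against 7.66% and 5.87% of all 10707 genes tested and 6.70% and 6.04% of other genes with a mean of at least 50. With the replicate block 24 were higher and 18 lower, against 15.2% and 15.7% of all genes, and the 13 earlier calls were among them. Of the 232 members over the limit in both genotypes 7 were higher and 4 lower. Zfp207, Zfp326 and Zfp446 kept their calls when any clone or replicate number was left out and over clone means, and the other named members lost theirs in at least 1 of these fits. The number of higher members fell to 2 without R98S clone 35, against 4.61% of all genes, and was 15 without WT clone 29, against 7% of all genes. Of the 46 members called in total mRNA 41 had the same sign in polysomal RNA, against 92.8% of all genes called in total mRNA, and 8 were called in each fraction and in 1 direction, against 31.6% (Zfp207, Zfp446, Zfp551, Zfp691 and Zfp747 higher, Zfp524, Zfp692 and Zfp846 lower). The libraries of both fractions came largely from the same cultures.

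**Figure D5:**
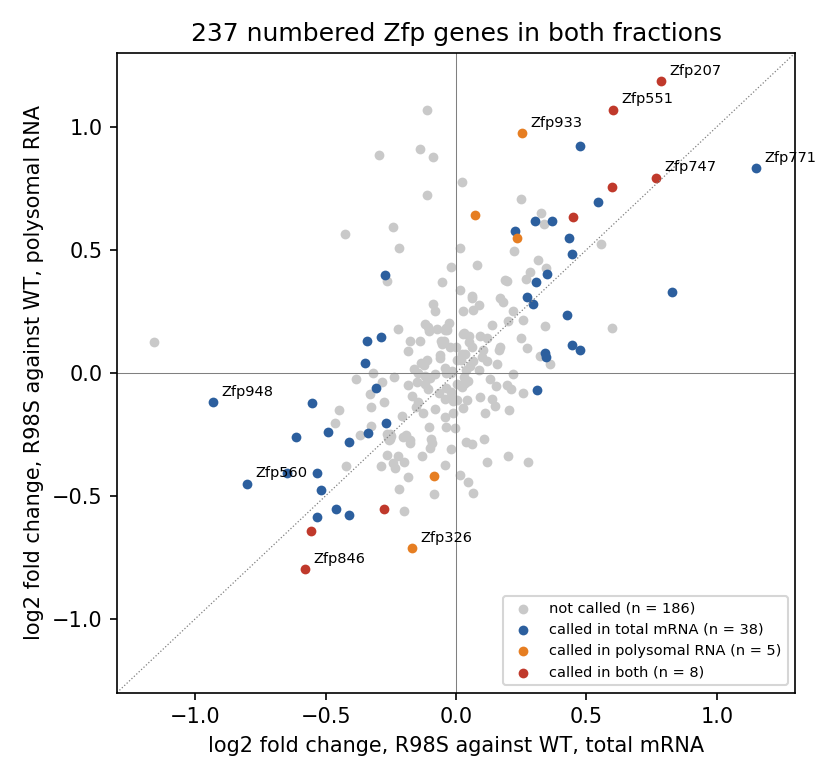
Each point is 1 of 237 numbered Zfp genes, placed by its log2 fold change of R98S against WT in total mRNA (horizontal) and in polysomal RNA (vertical), with colours for calls at an adjusted p under 0.1; the dotted line marks equal changes. The 8 genes called in both lie in the quadrants of equal sign, with Zfp207 at 0.79 and 1.19 and Zfp846 at -0.58 and -0.80.

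Besides Zfp207 the largest increases among called members were those of Zfp551 (1.07, SE 0.32, adjusted p = 0.0438), Zfp933 (0.97, SE 0.26, adjusted p = 0.0245), Zfp747 (0.79, SE 0.24, adjusted p = 0.0501) and Zfp446 (0.75, SE 0.14, adjusted p = 0.00283). Zfp551 reached the limit of 50 in total mRNA through R98S alone. Because largely the same cultures gave both fractions, its polysomal difference may partly follow from the choice of members. Zfp933, a KRAB gene, had 109, 162 and 215 normalized counts in R98S polysomal RNA and 34.6, 95.1 and 122 in WT, and 7 of 8 R98S libraries lay above all WT libraries, but in total mRNA its difference was 0.25 (adjusted p = 0.283). Zfp446 had 350, 432 and 511 in R98S and 207, 266 and 294 in WT without overlap. Groups that did not overlap were also found for Zfp143, Zfp207 and Zfp867, higher, and for Zfp326, Zfp605 and Zfp846, lower, together 2.95% of members and 4.96% of all genes tested.

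The most negative polysomal change was that of Zfp846, with 14.6, 30.2 and 34.7 in R98S and 38.3, 47.1 and 63.6 in WT (-0.80, SE 0.24, adjusted p = 0.0424). Zfp846 reached the limit of 50 in total mRNA through WT alone, so this difference too may partly follow from the choice of members. Zfp326, a zinc finger protein that links elongating RNA polymerase to splicing, had 319, 413 and 509 in R98S and 582, 685 and 818 in WT (-0.71, SE 0.15, adjusted p = 0.00579), whereas its total mRNA overlapped, at 455, 543 and 681 against 527, 618 and 739 (-0.17, adjusted p = 0.196). Zfp524 was lower at -0.64 (adjusted p = 0.0917), but 46.5% of its exonic bases overlap Gm44973 on the same strand. Zfp692 was lower at -0.55 (adjusted p = 0.0478) and Zfp605 at -0.42 (adjusted p = 0.047).

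The polysomal to total ratio was not called different between genotypes for any of 237 members, nor with the replicate block. Among all 10627 genes tested 0.0376% were called higher and 0% lower, and with the block 0.386% and 0.0847%. At an unadjusted p under 0.05, 9 members were higher and 5 lower, against 3.72% and 2.24% of all genes. The smallest p was that of Zfp326, whose ratio differed by -0.58 (SE 0.16, unadjusted p = 0.00202, adjusted p = 0.585), with -0.04 to 0.32 in WT and -0.69 to -0.11 in R98S, groups that did not overlap. Zfp143 followed at 0.54 (SE 0.18, unadjusted p = 0.00776, adjusted p = 0.707), with -1.32 to -0.52 in WT and -0.52 to -0.13 in R98S, groups that overlap slightly. Without the cultures of WT clone 29, 4 members were called higher and 1 lower, against 0.452% and 0.16% of all genes. The median absolute difference of the ratio was 0.18 in members and 0.21 in other genes with a mean of at least 50.

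The members with known roles were read by lists. Over all genes 14.5% were higher and 15.8% lower in total mRNA, and 7.66% and 5.87% in polysomal RNA. Of 2 that act on ribosomes, Zfp598, a ubiquitin ligase that marks collided ribosomes, had 859, 1222 and 1580 normalized counts in R98S and 971, 1137 and 1680 in WT total mRNA (-0.02, adjusted p = 0.932). Zfp622, which takes part in the maturation of the large subunit, had 888, 1010 and 1506 and 901, 1039 and 1081 (0.09, adjusted p = 0.54). Neither was called in polysomal RNA, where the differences were -0.10 and 0.01. Their WT ratios, here and in the lists below relative to genes of the same level and given as descriptions, were -0.58 for Zfp598 and 0.37 for Zfp622, where the median member stood at -0.39. Zfp593, another factor of the large subunit, had a mean of 18.8 and is no member, but was higher in total mRNA, with 23.5 ± 9.12 (SD, n = 9) in R98S and 13.5 ± 6.82 (SD, n = 8) in WT (0.81, SE 0.30, limma adjusted p = 0.0563), groups that overlap. The call held in 12 of 23 alternatives, and 77.9% of its exonic bases lie opposite E130218I03Rik. In polysomal RNA it had 0.22 (adjusted p = 0.729).

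Of 5 members that bind or process RNA, Zfp207 was higher in both fractions and Zfp326 lower in polysomal RNA, as given above. Zfp106, Zfp346 and Zfp830 had total mRNA differences of -0.04, 0.01 and 0.05, none called. Zfp346, which binds double-stranded RNA, had a polysomal difference of 0.51 (adjusted p = 0.384), and with the replicate block it was 0.38 and called (adjusted p = 0.0373). The WT ratios of the 5 ran from -0.62 for Zfp346 to 0.61 for Zfp830.

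Of 4 members known to silence retroelements or to guard imprints, none was called in total mRNA or polysomal RNA. The shares of all genes were 14.5% higher and 15.8% lower in total mRNA and 7.66% and 5.87% in polysomal RNA. The total mRNA differences were -0.24 for Zfp445, 0.22 for Zfp568, 0.25 for Zfp809, which recognises the primer binding site of retroviruses, and 0.03 for Zfp932, which shares 37.0% of its windows with Gm15446. With the replicate block Zfp445 was called lower in total mRNA (-0.23, adjusted p = 0.068) and Zfp809 higher in polysomal RNA (0.64, adjusted p = 0.0591). Zfp809 had 245, 355 and 411 in R98S polysomal RNA and 78.5, 241 and 311 in WT, with 6 of 8 R98S libraries above all WT libraries (0.71, SE 0.26, adjusted p = 0.107).

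Of 4 members with roles in lymphocytes, Zfp335, needed for T-cell maturation, was higher in total mRNA, with 445, 522 and 669 in R98S and 401, 461 and 519 in WT (0.22, SE 0.09, adjusted p = 0.0894). The call was lost in 12 of 24 alternatives, and 23.3% of its exonic bases lie opposite Pcif1. Zfp91, Zfp318 and Zfp609 had differences of -0.14, -0.22 and -0.32, none called, and with the replicate block Zfp609 was called lower in total mRNA (-0.31, adjusted p = 0.0137) and Zfp318 in polysomal RNA (-0.62, adjusted p = 0.0139, against -0.47 and 0.437 without it). The WT ratios of the 4 ran from -1.50 for Zfp335 to -0.57 for Zfp91. Zfp318, which controls the splicing of the IgD message in mature B cells, has a transcript of 13060 bases and stood at -0.94.

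Of 5 members that work with chromatin complexes, Zfp592 was higher and Zfp687 lower in total mRNA, which are known to act in the same chromatin complex. Zfp592 had 1022, 1198 and 1466 in R98S and 814, 1023 and 1090 in WT (0.31, SE 0.09, adjusted p = 0.0198), with 7 of 9 R98S libraries above all WT libraries. Zfp687 had 824, 1078 and 1404 in R98S and 1086, 1397 and 1882 in WT (-0.41, SE 0.13, adjusted p = 0.0274), with 5 of 9 below all WT libraries, and its polysomal difference was -0.58 (adjusted p = 0.35) and with the replicate block -0.71 and called (adjusted p = 0.00462). Zfp217, Zfp644 and Zfp703 had differences of -0.22, -0.04 and -0.28, none called, and with the replicate block Zfp703 was called lower (-0.24, adjusted p = 0.0808). The WT ratios of the 5 ran from -1.75 for Zfp217 to -0.55 for Zfp644.

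Of 6 sequence-specific regulators, Zfp281, a factor of stem cells, was higher in total mRNA (0.27, SE 0.11, adjusted p = 0.0681), from 496, 611 and 747 in R98S and 458, 494 and 637 in WT, and the call was lost in 12 of 24 alternatives. Zfp143, an activator of many housekeeping promoters, had 333, 385 and 483 in R98S and 289, 355 and 509 in WT total mRNA (0.07, adjusted p = 0.691). In polysomal RNA it had 259, 300 and 336 in R98S and 131, 197 and 240 in WT without overlap (0.64, SE 0.16, adjusted p = 0.0157). Zfp148, Zfp263, Zfp384 and Zfp410 had total mRNA differences from -0.06 to 0.00 and were called in neither fraction, although with the replicate block Zfp384 was called lower in polysomal RNA (-0.30, adjusted p = 0.0685). The WT ratios of the 6 ran from -1.07 for Zfp263 to 0.56 for Zfp410.

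A list of 33 other genes was written by hand for the corepressor machinery that KRAB proteins recruit. It also holds general factors of heterochromatin and DNA methylation, and all 33 were tested in total mRNA. There 1 was higher and 5 were lower in R98S, and in polysomal RNA 0 were higher and 1 lower of 32 (with the replicate block 1 and 8 in total mRNA and 1 and 11 in polysomal RNA). The shares over all genes were 14.5% higher and 15.8% lower in total mRNA and 7.66% and 5.87% in polysomal RNA, and with the block 18.5% and 19.9%, and 15.2% and 15.7%. Chd3, a chromatin remodeller, was higher (0.50, adjusted p = 0.00144). Setdb1, the histone methyltransferase that Trim28 recruits, was lower, with means of 1678 ± 218 (SD, n = 9) in R98S and 2262 ± 244 (SD, n = 8) in WT (-0.43, adjusted p = 0.00212). Cbx5, a heterochromatin protein, was lower (-0.50, adjusted p = 0.00524), as were Uhrf1 (-0.52, adjusted p = 0.0158) and Dnmt1 (-0.32, adjusted p = 0.0177), which maintain DNA methylation. In polysomal RNA these 5 had 0.68, -0.50, -0.58, -0.80 and -0.20 in the same order, and none was called (adjusted p of 0.116 to 0.846), but with the replicate block all but Dnmt1 were (adjusted p of 0.00615 to 0.0803). The remaining calls, named after their values were seen, were Gatad2b, lower in total mRNA (-0.50, adjusted p = 0.0271), and Suv39h1, lower in polysomal RNA (-0.36, adjusted p = 0.0727). The median difference of the list was -0.06 in total mRNA and -0.25 in polysomal RNA, against 0.0035 and -0.02 over all genes tested.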

How the data were processed

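Poly(A) libraries of 31 samples were sequenced by the authors and mapped to mm10. The submitters' processing notes name Bowtie2, TopHat2 2.0.11, SAMtools, HTSeq and DESeq2. The deposited signal values are gene counts divided by DESeq2 size factors, separately for total and polysomal RNA. Dividing by the step of each column gave whole reads (within 0.01) for 100% of values above 0, so count tests could be run as alternatives.

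The members and lists were chosen with earlier results of these data known. 1 marker of the lists is not reported here. R98S was compared with WT by limma 3.58.1 (R 4.3.3, with a trend) on log2(value + 1) of genes that reached a mean of 10, with p-values adjusted by Benjamini-Hochberg over all genes tested, so that folds of low genes are understated. The ratio was the polysomal minus the total log2 value of a culture, and a baseline was tested as its mean against 0 within a genotype. A call is an adjusted p under 0.1. Same-numbered libraries deviated together, with correlations of 0.620, 0.549 and 0.481 in total mRNA (numbers 1, 2 and 3), 0.695, 0.666 and 0.867 for polysomes and 0.671, 0.538 and 0.812 for the ratio, so values with the number as a block are given for counts over all members and for the named genes whose call they change. The named genes were members of the role lists, up to 5 called members per direction and comparison by size of change, the 5 lowest and 5 highest WT baseline ratios and 5 corepressor genes with the smallest adjusted p. Fingers, KRAB, SCAN and linkers were found by residue patterns in the longest coding transcript of GENCODE M21. Alternatives were edgeR 4.0.16 and DESeq2 1.42.0 on the recovered reads, other pseudocounts, filters and scalings, clone means, left-out clones and numbers, and fits within a number. On simulated data at log2 changes of 1 and 0.5 the test recovered 100% and 89% for total mRNA, 100% and 82% for polysomes and 97% and 40% for the ratio, and 11.3%, 7.61% and 10.5% of the calls were of unchanged genes. The simulated libraries were drawn independently, without effects shared by clone, replicate number or culture. These shares therefore need not hold for the cultures used here.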

Additional observations from a re-analysis of the deposited data

Results flagged for a closer look

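In 13 of 194 groups of named genes (6.70%) 1 library stood apart from the rest of its group by Dixon's criterion at 95%, which chance gives in about 1 group in 20. In R98S total mRNA, clone 13 with number 3 was the highest for Zfp106 at 7603 normalized counts (others 2946 to 5017), for Zfp143 at 483 (others 333 to 408) and for Zfp933 at 342 (others 141 to 238). Clone 13 with number 2 was the highest for Zfp605 at 567.7 (others 428 to 497) and for Zfp692 at 598 (others 377 to 443). In R98S polysomal RNA, clone 13 with number 3 was the highest for Zfp524 at 119 (others 55.5 to 84.6).

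In WT polysomal RNA, clone 28 with number 2 was the highest for Zfp622 at 2098 (others 645 to 1086) and for Zfp775 at 95.2 (others 36.4 to 47.6), and the lowest for Zfp644 at 174 (others 382 to 505). In WT total mRNA the same culture was the highest for Zfp846 at 82.3 (others 61.8 to 70.7), clone 28 with number 3 the lowest for Zfp637 at 73.5 (others 114 to 143), clone 29 with number 1 the highest for Zfp764 at 211 (others 94.3 to 148), and clone 36 with number 3 the highest for Zfp281 at 637 (others 458 to 524).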

How the results depend on the processing

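Of 263 counts and medians under an alternative, 206 stayed within 1.5 times (counts) or 1 SD over cultures (medians) of the reported value, and of 5212 values of single genes 4463 kept sign and call, 340 changed sign with no call in either fit, 322 lost a call, 83 gained one and 4 changed sign with a call. Both totals include baselines of 1 genotype with cultures of the other left out. Those fits use unchanged cultures and could not differ, so they add to the values that stayed. With the replicate number as a block, and libraries paired by it, 24 members were higher and 18 lower in polysomal RNA (15.2% and 15.7% of all genes, whose shares stand in parentheses from here on). With a GC correction as well these were 33 and 22 (18% and 17.4%), and 42 were higher and 27 lower in total mRNA (21% and 18.8%). DESeq2 called 13 higher in polysomal RNA (9.31%). Over clone means 2 were higher and 1 lower there (4.45% and 2.57%). Without a filter on low values 14 were lower in total mRNA (7.17%) and 2 in polysomal RNA (2.98%), where a filter at a mean of 50 gave 3 (5.5%) and quantile normalization 8 (6.17%), and the latter left 3 with a higher WT baseline (13.5%). Bins of level and length gave an R98S median of -0.19, and bins of level and coding length, added after seeing the data, -0.13 in WT and -0.088 in R98S. Fits within replicate numbers 1, 2 and 3, added after seeing the data and with 1 to 3 clones a genotype, called 10, 0 and 5 members higher (6.33%, 1.16% and 3.79%) and 5, 1 and 1 lower (5.94%, 1.01% and 5.61%) in total mRNA. In polysomal RNA the fits within numbers 2 and 3 called 1 and 15 higher (1.76% and 10.1%) and 0 and 11 lower (1.24% and 10.8%). Number 1 has 1 WT culture in polysomal RNA and in the ratio. Both fits take their spread from R98S alone and cannot test the genotypes, so their calls are not given. The WT baseline gave 1 higher and 68 lower within number 2 (2.71% and 19.6%) and 21 higher within number 3 (30.3%), and the R98S baseline 16 higher within number 3 (27.4%). Signs changed with a call for the R98S baseline of Zfp346 within number 1 (0.28), Zfp560 within number 3 (0.48) and Zfp825 within number 2 (-0.56). The ratio of Zfp771 within number 1, also among the 4 counted above, changed sign (1.09) in a fit with 1 WT culture. The cause was not tested.

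When clones, replicate numbers or WT clone 29 with number 1 were left out in turn, 8 to 30 members were higher (5.99% to 17.4%) and 6 to 29 lower (6.03% to 17.4%) in total mRNA, 2 to 15 (3.62% to 9.52%) and 1 to 7 (2.05% to 9.51%) in polysomal RNA and 0 to 4 (0% to 0.452%) and 0 to 1 (0% to 0.254%) in the ratio. Here each range of shares was taken over the fits on its own, so its ends need not come from the same fits as the counts beside it. The WT baseline gave 0 to 10 higher (0.0659% to 18.9%), 10 to 148 lower (9.01% to 43.5%) and a median of -0.55 to -0.25, and the R98S baseline 4 to 8 higher (8.23% to 19%), 140 to 171 lower (36.4% to 47.7%) and a median of -0.39 to -0.27. The 171 and 47.7% came from fits that left out WT cultures, which do not change the R98S baseline. Changes of 0.5 in the ratio were recovered in 40% of simulated cases, in which libraries were independent and clones had no effect. The data have 3 clones a genotype and few matched cultures, so a ratio without a call does not show equal values.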

Other observations

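Zfp109, chosen here after its values were seen, differed between clones more than any other member. The means of its clones in total mRNA spanned 5.16 on the log2 scale, with an SD of 1.54 within clones. The 2 total mRNA libraries of WT clone 36 had 1431 and 3853 normalized counts. WT clone 28 had 52.2 to 1552, R98S clone 35 had 53.1 to 703 and the other clones 50.03 to 152. In polysomal RNA the 1 library of WT clone 36 had 137, and all others had 15.2 to 59.7. Zfp109 was the 1 member of 237 whose clone means spanned over 2 on the log2 scale (0.422%), whereas 326 of 9607 other genes with a mean of at least 50 did (3.39%). The median span was 0.48 in members and 0.53 in other genes.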
